A study of Rattus norvegicus with 30 samples.

Results

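The acute-phase and antimicrobial genes Lcn2, Hp, Cp, Lbp, Ptx3, Reg3g, Slpi, Serpina1, A2m and Orm1 were followed by RNA-seq in rat lung. They were taken by gene symbol from the tables of read counts and of FPKM (fragments scaled to transcript length and to the reads of the library), where all 10 were present among 22914 genes with counts and all 10 had enough reads to be tested among 15934 genes. The 30 libraries came from the lungs of 30 male Sprague Dawley rats, 8 weeks old, with 3 rats in each of 10 groups. In the Sham groups the pancreas was only turned during surgery, and in the Con groups saline was run into the biliopancreatic duct. In the SAP groups, severe acute pancreatitis was induced with 5.0% sodium taurocholate, a bile salt, run into the same duct. The DEX groups were SAP rats given the synthetic glucocorticoid dexamethasone intravenously at 10 mg/kg. The Emo groups were SAP rats given emodin, an anthraquinone from rhubarb, into the stomach, for which the sample descriptions give 10 mg/kg and the treatment protocol 40 mg/kg. Both drugs were given 2 and 12 hours after the operation, and lungs were taken at 6 or 24 hours, so that rats of the 6-hour groups had received 1 dose. Rats without DEX received intravenous saline and rats without emodin received 0.5% carboxymethylcellulose by stomach, so that each group carried the vehicle of the drug it was not given. All rats had been fasted, anaesthetised with pentobarbital and operated on, and no unoperated rats were among the groups.

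Acute-phase proteins are secreted proteins whose production changes during inflammation, mainly in the liver and in part in epithelia and leukocytes. Interleukin-6 and related cytokines act through STAT3, and interleukin-1 acts through NF-kB and C/EBP factors, to switch on their genes, and glucocorticoids strengthen the response of several of them in hepatocytes. In the lung, such proteins are known for withholding iron and haem from bacteria, for marking or killing bacteria, and for shielding tissue from neutrophil proteases.

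RefSeq promoters (build GRCr8) were at hand for 6 of the 10 genes, namely Orm1, Ptx3, Reg3g, Serpina1, Lcn2 and Cp. The 4 printed here are those of the genes that passed the test between SAP-24h and Sham-24h, and each runs from 250 bases before the transcription start to 50 bases after it, 5′ to 3′ on the strand of the gene. They are Orm1 (chr5:81788259-81788558, plus strand), Ptx3 (chr2:152797313-152797612, plus strand), Reg3g (chr4:112484689-112484988, minus strand) and Serpina1 (chr6:128653076-128653375, minus strand). Capitals mark matches on either strand to the C/EBP letters TTNNGNAA and to the NF-kB letters, which are GGG and CC with any 5 bases between them, with overlapping matches joined.
Orm1: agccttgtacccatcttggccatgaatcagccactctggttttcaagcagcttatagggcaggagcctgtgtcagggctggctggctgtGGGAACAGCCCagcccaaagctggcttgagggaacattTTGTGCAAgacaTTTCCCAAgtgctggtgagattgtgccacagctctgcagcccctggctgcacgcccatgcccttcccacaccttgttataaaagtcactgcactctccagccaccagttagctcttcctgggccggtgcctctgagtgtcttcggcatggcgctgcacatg
Ptx3: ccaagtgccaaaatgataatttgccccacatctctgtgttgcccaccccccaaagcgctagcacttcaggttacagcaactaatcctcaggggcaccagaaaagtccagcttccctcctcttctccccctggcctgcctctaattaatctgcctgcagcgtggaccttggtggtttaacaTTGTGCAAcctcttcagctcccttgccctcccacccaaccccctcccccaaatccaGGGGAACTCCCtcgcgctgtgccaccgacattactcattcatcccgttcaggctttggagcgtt
Reg3g: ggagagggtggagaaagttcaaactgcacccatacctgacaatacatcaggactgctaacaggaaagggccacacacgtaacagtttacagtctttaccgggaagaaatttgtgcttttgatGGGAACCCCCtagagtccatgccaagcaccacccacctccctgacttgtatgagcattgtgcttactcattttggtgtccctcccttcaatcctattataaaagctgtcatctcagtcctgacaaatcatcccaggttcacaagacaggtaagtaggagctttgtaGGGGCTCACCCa
Serpina1: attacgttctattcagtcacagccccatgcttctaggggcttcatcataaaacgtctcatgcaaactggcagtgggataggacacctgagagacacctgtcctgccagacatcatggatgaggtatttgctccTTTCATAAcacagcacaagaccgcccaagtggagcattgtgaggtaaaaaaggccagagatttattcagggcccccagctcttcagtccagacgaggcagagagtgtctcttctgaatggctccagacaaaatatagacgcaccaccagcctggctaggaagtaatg

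The run TTGTGCAA was found in the promoters of Orm1 (first base at position -123 from the start), Ptx3 (-70) and Cp (-72). A C/EBP match of other letters was found in Orm1 (-111), Lcn2 (-191) and Serpina1 (-117), and the Reg3g window held no C/EBP match. NF-kB letters were found in Orm1 (-161), Ptx3 (-14), Reg3g (-128 and 39) and Lcn2 (-243 and -81). Such matches were common, with C/EBP letters in 41.3% and NF-kB letters in 47.3% of all 33469 RefSeq promoters of this length. The STAT letters TTCNNNGAA, held by 8.87% of all promoters, the full letters of the glucocorticoid receptor site (0.0329%) and its shorter core AGAACA (20.7%) were in none of the 6 windows.

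The libraries held 16813949 to 34692306 reads on genes, with reads on 17453 to 18822 genes. By the mapping table of the study, every library from rats given taurocholate had a lower share of uniquely mapped reads than every Sham or Con library. In comparisons of SAP, DEX or Emo with Sham or Con, that library difference and the treatment cannot be told apart. The defining markers of lung were present throughout, since Sftpc, the surfactant protein of alveolar type 2 cells, ranged from 12733 to 30191 FPKM and Ager, a marker of alveolar type 1 cells, from 368 to 1893 FPKM. Of 11 hepatocyte markers found, 9 had a mean under 1 FPKM, among them Alb at 0.382 FPKM, Fgb at 0.0387 FPKM and Cps1 at 0.0153 FPKM. The exceptions were Cyp2e1 at 89.4 FPKM and Hamp at 5.38 FPKM. Among the 9, the level in the highest rat was 6.42 FPKM for Alb, 4.89 for Ttr, 1.61 for Apoa1 and 1.21 for Ahsg. Of 10 pancreatic acinar markers, 9 were found, and Prss1, Pnlip, Clps and Amy2a3 were at 0 FPKM in 26 to 29 of the 30 rats. The highest was Cela1, with a mean of 14.5 FPKM and no rat at 0, followed by Ctrb1 at 1.12 FPKM. The summed level of the 9 ranged from 12.0 to 29.3 FPKM in SAP-24h and from 12.2 to 15.6 FPKM in Sham-24h, which overlapped, and its part in the results was not tested.

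The 10 genes covered a wide range of levels. On the FPKM scale, which corrects for transcript length, the mean over 30 rats was 454 for Lcn2, which placed it 178th among 19058 protein-coding genes. It was 109 for Slpi, 93.6 for Hp, 44.4 for Lbp, 21.8 for Cp, 15.01 for Serpina1, 11.1 for Orm1, 2.16 for Ptx3, 0.615 for Reg3g and 0.201 for A2m. Reg3g was listed at 0 in 5 rats and A2m in 2 rats, and fold changes of these 2 genes rest on few reads.

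**Figure D1:**
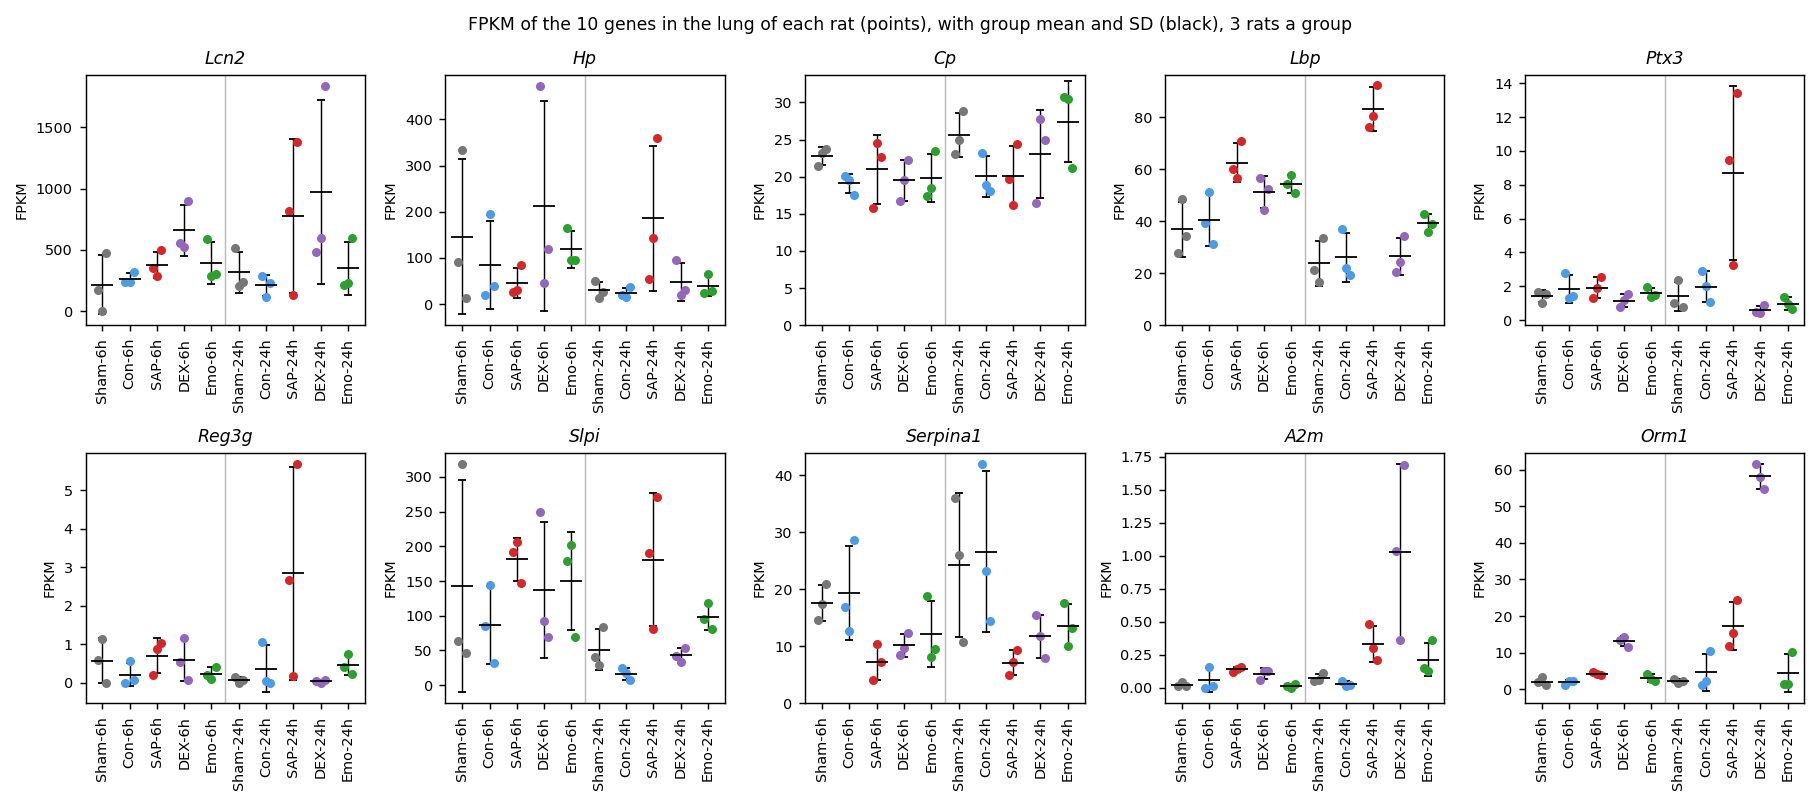
FPKM of each of the 10 genes in each rat (coloured points, linear axis) by group, with the mean as a black line and the SD as bars, n = 3 rats a group; the grey line divides 6 hours from 24 hours. Lbp and Ptx3 were highest in SAP-24h without overlap with the group next to it, Orm1 was highest in DEX-24h at 54.9 to 61.5 FPKM, and Cp stayed between 15.7 and 30.8 FPKM in all rats.

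The first question was which of these genes differed between rats with and without pancreatitis, and the second whether either drug moved them. A gene was called when edgeR's quasi-likelihood test gave an adjusted p under 0.05 over all genes tested and the change was at least 2-fold, that is, at least 1 on the log2 scale. At 24 hours, Lbp, Ptx3, Reg3g and Orm1 rose and Serpina1 fell in SAP-24h against Sham-24h, so that 5 of 10 genes were called where 5.00% of all genes tested were called (1.98% higher and 3.01% lower). The median log2 fold change was 2.12 for the 10 genes and -0.03 for all genes. The 10 genes and the lists below were chosen with earlier results of these data known. A share above that of all genes is thus no independent evidence. In FPKM, 6 of the 10 genes were higher in every SAP-24h rat than in every Sham-24h rat, as were 7.58% of all genes, and 1 was lower in every SAP-24h rat, as were 21.8% of all genes. Against Con-24h, 7 of 10 were called (6.91% of all genes, 3.65% higher and 3.26% lower), with Lbp, Ptx3, Orm1, Slpi, Hp and A2m higher and Serpina1 lower in SAP-24h. In DEX-24h against SAP-24h, Lbp, Ptx3, Reg3g and Slpi fell, 4 of 10 (3.73% of all genes, 1.18% higher and 2.55% lower). In Emo-24h against SAP-24h, Lbp, Ptx3 and Orm1 fell, 3 of 10 (3.19% of all genes, 1.26% lower). Emo-24h and DEX-24h were set against the same 3 SAP-24h rats, so these counts are not independent of each other. In Emo-24h vs DEX-24h, edgeR called Orm1, lower in Emo-24h, 1 of 10 (5.06% of all genes). A2m was close to the threshold there. In FPKM, Lbp, Reg3g and Slpi were higher in every Emo-24h rat than in every DEX-24h rat without passing. The share of all genes set apart in this way is not given for this comparison, so this is a description only. By scaled reads, Lbp overlapped between these groups.

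These counts rest on a spread estimated over all 30 libraries. When only the 6 libraries compared were modelled, 0 of the 10 genes were called in SAP-24h vs Sham-24h and 0 in Emo-24h vs SAP-24h, with adjusted p of 0.061 and 0.067 for Lbp and 0.101 and 0.102 for Ptx3 in the same order. Over all genes, that setting called 3 of 14998 in SAP-24h vs Sham-24h (2 higher, 1 lower) and 0 of 15057 in Emo-24h vs SAP-24h, so that nearly all calls were lost there and not those of the 10 alone. Reg3g did not pass its filter on low counts in SAP-24h vs Sham-24h, and in Emo-24h vs SAP-24h it had an adjusted p of 0.205. In SAP-24h vs Con-24h the setting called 3 of the 10 and 230 of 14757 genes, with Serpina1 (adjusted p = 0.0641), Orm1 (0.143), Hp (0.0615) and Ptx3 (0.0771) lost. Calls were less affected between DEX-24h and SAP-24h, with 65 genes called higher and 156 lower of 14811. Among the 10, Slpi was lost there (adjusted p = 0.0644) and Orm1 was gained, higher in DEX-24h (0.0291). For Emo-24h vs DEX-24h the setting called 626 genes higher and 190 lower of 15123. The log2 fold changes in SAP-24h vs Sham-24h and Emo-24h vs SAP-24h stayed close (1.93 and -1.24 for Lbp, 2.77 and -3.31 for Ptx3).

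At 6 hours, none of the 10 genes was called by edgeR in SAP-6h vs Sham-6h, where 0.220% of all genes were called. At an unadjusted p under 0.05 and 2-fold, 2 of the 10 passed there (3.91% of all genes), and DESeq2 called 0. In SAP-6h vs Con-6h edgeR called 0 of the 10 (0.163% of all genes), with 1 at the unadjusted p (2.65%) and 0 by DESeq2. In DEX-6h vs SAP-6h it called 0 (0.515%), with 2 at the unadjusted p (2.97%) and 0 by DESeq2. In Emo-6h vs SAP-6h it called 0 (0.0251%), with 1 at the unadjusted p (2.85%) and 0 by DESeq2. In Emo-6h vs DEX-6h it called 0 (1.41%), with 2 at the unadjusted p (5.23%) and 2 by DESeq2, which were Orm1 and A2m, both lower in Emo-6h. Saline in the duct gave 0 calls by edgeR and by DESeq2 among the 10 against Sham. At 6 hours 0% of all genes were called and 0 of the 10 passed at the unadjusted p (1.79% of all genes), and at 24 hours 1.00% were called and 1 of the 10 passed at the unadjusted p (2.92%).

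Between 6 and 24 hours, edgeR called Orm1 and Ptx3 in SAP rats (2 of 10, with 2.42% of all genes), Orm1 and A2m in DEX rats (2 of 10, with 7.14%) and A2m in Emo rats (1 of 10, with 9.41%), all higher at 24 hours. DESeq2 called 4 in DEX rats, adding Slpi (-1.70, adjusted p = 0.0414) and Reg3g (-3.72, adjusted p = 0.0473), both lower at 24 hours. Over all 15934 genes DESeq2 called 490 higher and 721 lower in DEX rats. Lbp was also lower at 24 hours in DEX rats in edgeR, at -0.94 ± 0.25 (adjusted p = 0.00799), which is under 2-fold. By edgeR, 0 of the 10 were called in Sham rats (0.257% of all genes), with 2 at the unadjusted p (3.26%) and 0 by DESeq2. In Con rats edgeR called 0 (0.00628%), with 1 at the unadjusted p (3.40%) and 1 by DESeq2, which was Slpi.

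**Figure D2:**
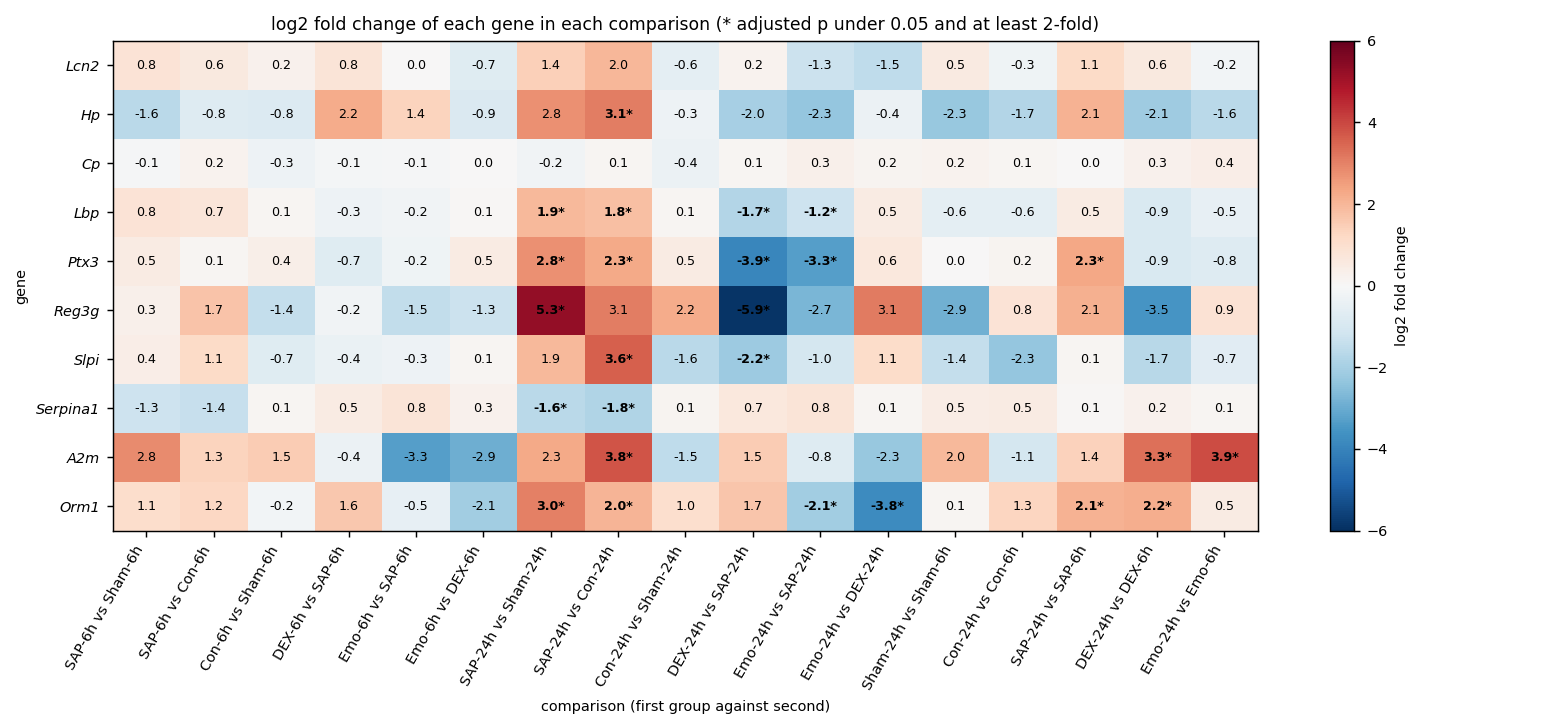
log2 fold change of each gene (rows) in 17 comparisons (columns), first group against second, as colour and number, with stars for an adjusted p under 0.05 and at least 2-fold in edgeR's test. The stars lie in the comparisons at 24 hours and between 24 and 6 hours, with up to 7 genes in SAP-24h vs Con-24h and none in the 6 comparisons at 6 hours.

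Lbp encodes lipopolysaccharide-binding protein, which hands bacterial lipopolysaccharide to CD14. In SAP-24h its FPKM was 76.3, 80.5 and 92.6 in the 3 rats, against 21.2, 16.8 and 33.5 in Sham-24h and 36.9, 22.1 and 19.5 in Con-24h. All SAP-24h rats lay above every rat of the other 9 groups. The log2 fold change was 1.93 ± 0.25 (SE, adjusted p = 0.000405) against Sham-24h, and it stayed called without any 1 of the 6 rats. DEX-24h rats, with 20.7, 24.4 and 34.4 FPKM, overlapped the Sham-24h rats, and the change from SAP-24h was -1.74 ± 0.25 (adjusted p = 0.000215). Emo-24h rats, with 43.0, 35.8 and 38.8 FPKM, lay between, above every Sham-24h and every DEX-24h rat and below every SAP-24h rat. The change from SAP-24h was -1.24 ± 0.25 (adjusted p = 0.0058), while Emo-24h vs DEX-24h gave 0.50 ± 0.24 (adjusted p = 0.243). At 6 hours SAP rats (56.6 to 71.0 FPKM) lay above the Sham rats (27.9 to 48.6 FPKM). The log2 fold change of 0.81 ± 0.25 did not pass (adjusted p = 0.138).

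Ptx3 encodes the long pentraxin 3, which coats bacteria and fungi for uptake. It was low in every group at 6 hours (0.76 to 2.79 FPKM) and reached 9.47, 3.23 and 13.4 FPKM in SAP-24h, where Sham-24h had 1.04, 2.39 and 0.77 FPKM. The lowest SAP-24h rat was above all rats of the other 9 groups. The log2 fold change was 2.75 ± 0.50 against Sham-24h (adjusted p = 0.00203) and 2.30 ± 0.49 against SAP-6h (adjusted p = 0.00982). The call against SAP-6h was lost without replicate 1 of SAP-6h (adjusted p = 0.0544) and with only the 6 libraries compared (adjusted p = 0.0835). After DEX, Ptx3 was at 0.50, 0.45 and 0.88 FPKM at 24 hours, and after emodin at 1.38, 0.93 and 0.64 FPKM. Both treated groups lay below the SAP-24h rats and overlapped the Sham-24h rats, with changes from SAP-24h of -3.92 ± 0.53 (adjusted p = 0.00015) and -3.31 ± 0.52 (adjusted p = 0.00226). The 4 calls of Lbp and Ptx3 against SAP-24h held without any 1 of the 6 rats compared.

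Reg3g encodes a secreted C-type lectin that kills Gram-positive bacteria and is best known from gut epithelium. SAP-24h had 73, 5 and 153 reads on it in its 3 rats (2.68, 0.17 and 5.68 FPKM), Sham-24h had 4, 0 and 2 reads and DEX-24h had 2, 0 and 2 reads. Con-24h, with 23, 1 and 0 reads, overlapped SAP-24h, and the difference did not pass (3.05 ± 1.25, adjusted p = 0.0817). In Sham-6h (16, 27 and 0 reads), 2 rats also exceeded the lowest SAP-24h rat. Most of the SAP-24h reads were from 2 rats, and the lowest SAP-24h rat stood only just above the highest Sham-24h rat at 0.15 FPKM. Summed over rats and scaled to reads on genes, SAP-24h was 36.1-fold above Sham-24h (95% interval 16.4 to 99.5, exact, counting error only). DEX-24h was 58.3-fold below SAP-24h (22.5 to 216). In edgeR the log2 fold changes were 5.29 ± 1.47 (adjusted p = 0.0223) and -5.88 ± 1.55 (adjusted p = 0.022). The first call was lost without replicate 3 of SAP-24h or any 1 of the 3 Sham-24h rats (adjusted p 0.0558 to 0.0912). The second was lost without replicate 3 of SAP-24h or any 1 of the 3 DEX-24h rats (adjusted p 0.0672 to 0.0893). Emo-24h had 10, 20 and 6 reads, more than any DEX-24h rat, and its change from SAP-24h of -2.74 ± 1.21 did not pass (adjusted p = 0.15). Reads that map to several genes had been discarded, so values of Reg3g may miss reads shared with close relatives of its family.

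Orm1 encodes alpha-1-acid glycoprotein, a plasma carrier of basic drugs and lipids. It was the gene of the 10 whose highest group was a DEX group without overlap with the next. DEX-24h had 61.5, 58.1 and 54.9 FPKM, SAP-24h had 11.9, 15.5 and 24.5 FPKM, and Sham-24h had 2.77, 1.81 and 2.25 FPKM. SAP-24h lay above Sham-24h by a log2 fold change of 3.04 ± 0.66 (adjusted p = 0.00552), a call that held without any 1 rat. Against Con-24h it was 2.04 ± 0.63 (adjusted p = 0.0233), which was lost without replicate 3 of SAP-24h or replicate 1 or 2 of Con-24h (adjusted p 0.0785 to 0.12). DEX-24h lay above SAP-24h in all 3 rats, but the change of 1.68 ± 0.61 did not pass (adjusted p = 0.093), and it passed when only those 6 libraries were modelled (adjusted p = 0.0291). At 6 hours the order was alike, with 13.6, 14.1 and 11.6 FPKM in DEX-6h, 4.75, 4.08 and 3.92 in SAP-6h and 1.85, 3.22 and 1.26 in Sham-6h. DEX-6h vs SAP-6h gave 1.62 ± 0.62 (adjusted p = 0.257), and with only those 6 libraries an adjusted p of 0.0307.

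Against Sham, in comparisons added after the data had been seen, Orm1 rose in DEX-6h by 2.69 ± 0.66 (adjusted p = 0.0121) and in DEX-24h by 4.72 ± 0.70 (adjusted p = 0.000341). The call at 6 hours was lost without replicate 1 or replicate 3 of Sham-6h (adjusted p 0.0595 and 0.0514 in that order). By edgeR it was the 1 of 10 called in DEX-6h vs Sham-6h (3.97% of all genes), where DESeq2 also called A2m (2.55, adjusted p = 0.0401), and with A2m 1 of 2 called in DEX-24h vs Sham-24h (4.15% of all genes). Emo-24h had 1.44, 1.34 and 10.3 FPKM of Orm1, so that 2 rats were below all Sham-24h rats and 1 was close to the lowest SAP-24h rat. Con-24h had a like single high rat at 10.4 FPKM beside 1.17 and 2.24. The change from SAP-24h to Emo-24h was -2.09 ± 0.63 on the log2 scale (adjusted p = 0.0421). That call was lost without any 1 of the 6 rats other than replicate 3 of Emo-24h (adjusted p 0.0501 to 0.159). Against DEX-24h it was -3.76 ± 0.67 (adjusted p = 0.00133), and that call held without any 1 rat. Between 6 and 24 hours, Orm1 rose by 2.16 ± 0.62 in DEX rats (adjusted p = 0.0134), which was lost without replicate 3 of DEX-6h (adjusted p = 0.0527). In SAP rats it rose by 2.11 ± 0.63 (adjusted p = 0.0486), which was lost in 5 of 6 fits that leave out 1 rat, the exception being replicate 2 of SAP-24h (adjusted p 0.0649 to 0.136), and with the replicate number as a block (adjusted p = 0.0562).

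A2m encodes alpha-2-macroglobulin, which traps proteases of many kinds and is a major acute-phase protein of rat plasma. Its reads in lung were few, with 201, 57 and 264 in DEX-24h, 77, 51 and 33 in SAP-24h, 21, 21 and 54 in Emo-24h and 8, 9 and 18 in Sham-24h. The DEX-24h rats thus had the highest FPKM (1.04, 0.36 and 1.69), with the lowest of them inside the range of SAP-24h (0.21 to 0.48). A2m rose by 3.81 ± 0.80 in DEX-24h vs Sham-24h (adjusted p = 0.00465) and by 3.79 ± 0.90 in SAP-24h vs Con-24h (adjusted p = 0.00489), while SAP-24h vs Sham-24h gave 2.29 ± 0.78 (adjusted p = 0.0542) without overlap of the groups. DEX-24h vs SAP-24h gave 1.52 ± 0.71 (adjusted p = 0.197). Emo-24h vs DEX-24h gave -2.29 ± 0.73 (adjusted p = 0.0514), which passed with RLE scaling (adjusted p = 0.0496) and with DESeq2 (adjusted p = 0.0203). From 6 to 24 hours A2m rose in DEX rats by 3.29 ± 0.77 (adjusted p = 0.00391) and in Emo rats by 3.93 ± 0.96 (adjusted p = 0.00343). The change was 1.95 ± 0.97 in Sham rats (adjusted p = 0.259) and 1.39 ± 0.75 in SAP rats (adjusted p = 0.251). Neither passed, though the FPKM of the 6-hour and 24-hour rats did not overlap. In Con rats it was -1.05 ± 0.97 (adjusted p = 0.761). The 3 DEX-6h rats had 53 reads together and the 3 DEX-24h rats, which were other animals, had 522, or 10.3-fold more by depth (95% interval 7.77 to 13.96, counting error only). The 3 Emo-6h rats had 6 and the 3 Emo-24h rats 96, or 17.8-fold more (7.87 to 49.6). The summed FPKM of the 11 hepatocyte markers ran from 220 to 335 in DEX-24h. It was between 35.9 and 160 in SAP-24h and between 53.3 and 67.3 in Sham-24h, nearly all of it Cyp2e1 (215 to 329 FPKM in DEX-24h), which lung cells also express. Alb, the defining product of hepatocytes, was at 0.02 to 0.17 FPKM in DEX-24h and 0.25 to 0.56 FPKM in SAP-24h. The part of hepatocyte RNA in the results was not tested.

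Slpi and Serpina1 both encode inhibitors of neutrophil elastase, the first secreted by airway epithelium and neutrophils, the second known as alpha-1-antitrypsin. Slpi was at 191, 80.9 and 271 FPKM in SAP-24h, 41.0, 28.4 and 84.1 in Sham-24h, 24.3, 17.8 and 7.12 in Con-24h, 42.5, 32.9 and 54.0 in DEX-24h and 95.6, 118 and 80.5 in Emo-24h. SAP-24h overlapped Sham-24h and Emo-24h but not Con-24h or DEX-24h. It rose by 3.58 ± 0.72 against Con-24h (adjusted p = 0.00178), and it fell by 2.16 (SE 0.67) in DEX-24h against SAP-24h (adjusted p = 0.0494). The fall after DEX was close to the threshold and was lost in 5 of 6 fits that leave out 1 rat, all but that without replicate 2 of SAP-24h (adjusted p 0.0998 to 0.16), without the filter on low counts (adjusted p = 0.0541) and with only the 6 libraries compared (adjusted p = 0.0644). Against Sham-24h the change of 1.95 ± 0.67 did not pass (adjusted p = 0.0563), and Emo-24h vs SAP-24h gave -1.04 ± 0.65 (adjusted p = 0.313).

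Serpina1 went the other way. It was at 4.92, 7.20 and 9.32 FPKM in SAP-24h against 35.9, 25.9 and 10.8 in Sham-24h and 42.0, 23.3 and 14.4 in Con-24h, with all SAP-24h rats below all rats of both groups. It fell by 1.64 on the log2 scale (SE 0.44, adjusted p = 0.0188) against Sham-24h and by 1.79 (SE 0.44, adjusted p = 0.00654) against Con-24h. The first call was lost without replicate 1 of SAP-24h or replicate 1 or 2 of Sham-24h (adjusted p 0.0586 to 0.0997), and the second without replicate 1 of Con-24h (adjusted p = 0.057). SAP-6h rats were at 4.08, 10.4 and 7.22 FPKM, below all Sham-6h rats (14.7 to 21.0 FPKM). The change of -1.26 ± 0.44 did not pass (adjusted p = 0.202). After treatment the 24-hour levels were 15.5, 11.9 and 7.99 FPKM with DEX and 17.6, 10.1 and 13.2 FPKM with emodin. The changes from SAP-24h, 0.65 ± 0.43 and 0.79 ± 0.43, did not pass (adjusted p = 0.385 and 0.251).

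Lcn2, Hp and Cp handle iron and haem. Lipocalin 2 binds the siderophores with which bacteria gather iron, haptoglobin binds free haemoglobin, and ceruloplasmin is a copper protein that oxidises iron. Lcn2 was the most abundant of the 10 and was called in none of the 24 comparisons, by edgeR or by DESeq2. Its spread within groups was large, with 814, 133 and 1382 FPKM in SAP-24h, 485, 594 and 1839 in DEX-24h, 218, 231 and 601 in Emo-24h and 512, 209 and 238 in Sham-24h. The SAP-24h rats thus included both a value below all Sham-24h rats and 2 values above them. The log2 fold change was 1.42 ± 0.91 for SAP-24h vs Sham-24h (adjusted p = 0.316), 0.23 ± 0.89 for DEX-24h vs SAP-24h (adjusted p = 0.901) and -1.28 ± 0.90 for Emo-24h vs SAP-24h (adjusted p = 0.379). At 6 hours DEX rats (528 to 899 FPKM) lay above SAP rats (287 to 496 FPKM), with a change of 0.78 ± 0.90 (adjusted p = 0.855).

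Hp varied as much. It was at 53.9, 143 and 360 FPKM in SAP-24h and 49.7, 12.7 and 26.2 in Sham-24h, without overlap, and it ranged from 14.1 to 334 FPKM among the Sham-6h rats and from 46.2 to 472 FPKM among the DEX-6h rats. It rose by 3.05 ± 1.01 against Con-24h (adjusted p = 0.0337), a call lost without replicate 3 of SAP-24h or replicate 1 or 2 of Con-24h (adjusted p 0.108 to 0.149). The change against Sham-24h was 2.76 ± 1.00 (adjusted p = 0.0705). DESeq2 called Hp, Slpi and A2m in SAP-24h vs Sham-24h beside the genes called by edgeR (adjusted p = 0.0269, 0.0249 and 0.0206). Cp was steady, with group means from 19.1 to 27.4 FPKM and log2 fold changes of -0.23 ± 0.19 for SAP-24h vs Sham-24h, 0.11 ± 0.19 for DEX-24h vs SAP-24h and 0.29 ± 0.19 for Emo-24h vs SAP-24h, none of which passed.

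Emo-24h was also set against Sham-24h, in a comparison added after the data had been seen. None of the 10 genes was called by edgeR (0 at the unadjusted p, 0 by DESeq2), and 0 of all 15934 genes were (0%), with 207 at an unadjusted p under 0.05 and 2-fold (1.30%) and 0 by DESeq2. In Emo-6h vs Sham-6h, also added, edgeR called 0 of the 10 (0.477% of all genes), with 0 at the unadjusted p (3.35%) and 0 by DESeq2. In FPKM, 3 of the 10 (Lbp, Reg3g and A2m) were higher in every Emo-24h rat than in every Sham-24h rat. Their log2 fold changes of 0.69 ± 0.25, 2.55 ± 1.52 and 1.52 ± 0.78 did not pass. The share of all genes set apart in this way is not given for this comparison, so no result is read from these 3. Reg3g rests on 10, 20 and 6 reads in Emo-24h against 4, 0 and 2 in Sham-24h. Whether the effect of emodin on the SAP lung differed between 24 and 6 hours was tested as an interaction, in which edgeR called 1 of the 10, Ptx3, at -3.06 ± 0.69 (adjusted p = 0.0258, with 1.68% of all genes called). DESeq2 called Lbp there as well (-1.05, adjusted p = 0.0381), and the Ptx3 call was lost with only the groups compared (adjusted p = 0.118). In the like interactions for SAP against Sham and DEX against SAP, none was called by edgeR, with 0.0314% and 0.138% of all genes called. At the unadjusted p and 2-fold 5 and 4 of the 10 passed (6.27% and 4.85% of all genes), and DESeq2 called 0 and 2, the latter being Ptx3 (-3.24, adjusted p = 0.00115) and Lbp (-1.48, adjusted p = 0.00623).

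The genes around these proteins were followed through lists of the acute-phase pathway. Of 23 inducers and transcription factors tested, 7 rose and 0 fell in SAP-24h vs Sham-24h, where 1.98% of all genes rose and 3.01% fell. As for the 10 genes, calls in the lists rest on the spread over all 30 libraries, since with only the 6 libraries compared 2 of all genes rose in SAP-24h vs Sham-24h and 0 were called in Emo-24h vs SAP-24h. They were Il6, the cytokine that starts the hepatic response, its shared receptor chain Il6st, the oncostatin M receptor Osmr, the signal transducer Stat3, its feedback inhibitor Socs3, and the transcription factors Cebpb and Cebpd. Socs3 rose by 3.16 ± 0.56 (adjusted p = 0.00167) and Cebpd by 2.13 ± 0.43 (adjusted p = 0.00355). Il6 rose by 5.71 ± 1.45 (adjusted p = 0.0141), yet its FPKM ran from 0.08 to 11.0 in the SAP-24h rats and overlapped the 0.06 to 0.11 of Sham-24h. The median log2 fold change of the list was 0.96 (-0.03 for all genes), and it was -0.84 in DEX-24h vs SAP-24h and -0.70 in Emo-24h vs SAP-24h (0.0022 and 0.02 for all genes). In DEX-24h vs SAP-24h, Il6, Osm, Osmr, Socs3 and Stat3 fell, 5 of 23 (2.55% of all genes), with Socs3 at -3.14 ± 0.55 (adjusted p = 0.00154). In Emo-24h vs SAP-24h, Il6, Socs3, Cebpb and Cebpd fell, 4 of 23 (1.26% of all genes), with Cebpd at -2.04 ± 0.43 (adjusted p = 0.00706). No gene of the list rose in either.

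Of 13 other acute-phase genes tested, the metallothioneins Mt1 (2 gene entries) and Mt2A, which bind zinc and copper, rose in SAP-24h vs Sham-24h, as did Fga. Mt2A rose by 5.55 ± 1.16 (adjusted p = 0.00436), and the median of the list was 0.83 (1.98% of all genes rose). Fga had a mean under 1 FPKM in every group, so its rise rests on low values. Both Mt1 entries and the fibrinogen chain Fgg fell in DEX-24h and in Emo-24h against SAP-24h, Mt2A fell in Emo-24h, and Agt, angiotensinogen, rose in DEX-24h. Over all genes 2.55% fell and 1.18% rose in DEX-24h vs SAP-24h, and 1.26% fell in Emo-24h vs SAP-24h. The metallothionein entries are near copies, so reads between them may be split or lost. Among 6 negative acute-phase genes, whose plasma proteins usually fall in inflammation, Tf, the iron carrier transferrin, rose by 1.68 ± 0.37 in SAP-24h vs Sham-24h (adjusted p = 0.00558), and the median of the 6 was 1.19. The SAP-24h rats had 245 to 305 FPKM, above all Sham-24h rats (41.7 to 142 FPKM). It fell by 1.48 in DEX-24h and by 1.51 in Emo-24h against SAP-24h (SE 0.36 in both).

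Of 22 other antimicrobial genes, with a median of 0.89 (-0.03 for all genes), 4 rose in SAP-24h vs Sham-24h (1.98% of all genes). They were Wfdc18 (5.08 ± 1.39) and Wfdc21 (2.88 ± 0.66), which share the whey acidic protein domain with Slpi, the mucosal scavenger protein Dmbt1 and the chitinase-like Chi3l1. Camp, the cathelicidin peptide of neutrophils, fell in DEX-24h (-2.50 ± 0.63) and Emo-24h (-2.21 ± 0.62) against SAP-24h, where also Chi3l1 fell with DEX and Sftpd with emodin. S100a7a rose with DEX, by 4.47 ± 1.08. Of 17 receptors, partners and target proteases, with a median of 0.57, Cd14, which takes lipopolysaccharide from the product of Lbp, rose by 1.67 ± 0.34 in SAP-24h vs Sham-24h (adjusted p = 0.00384) together with Hmox1. It fell by 1.54 (SE 0.34) in Emo-24h against SAP-24h. Heph, a ferroxidase related to ceruloplasmin, rose by 1.05 ± 0.22 in DEX-24h against SAP-24h. At 6 hours, 0 of the 81 list genes were called in SAP-6h vs Sham-6h, DEX-6h vs SAP-6h or Emo-6h vs SAP-6h (0.220%, 0.515% and 0.0251% of all genes). At an unadjusted p under 0.05 and 2-fold, 8, 1 and 6 passed (3.91%, 2.97% and 2.85% of all genes).

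**Figure D3:**
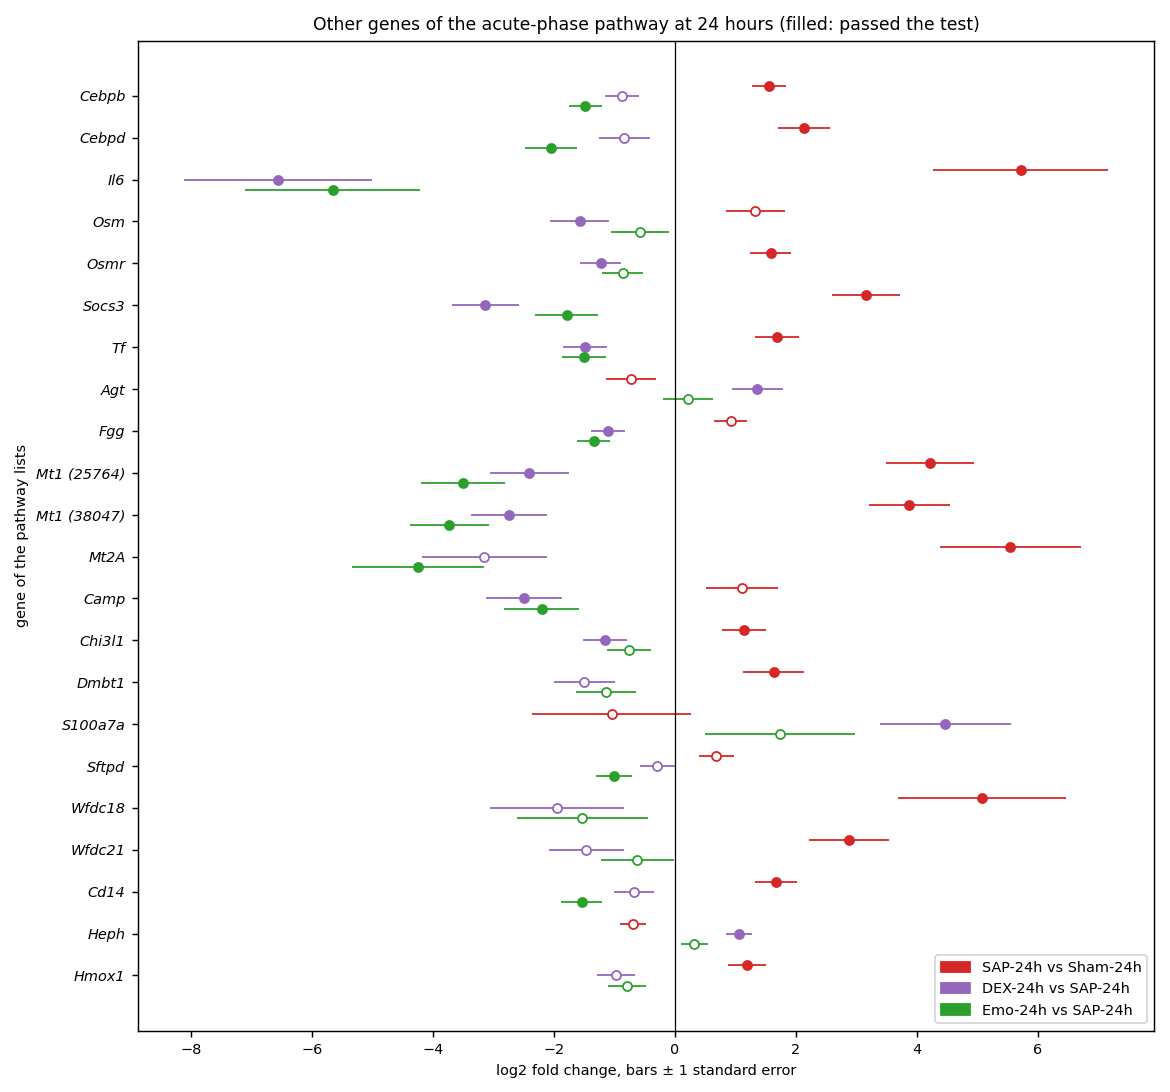
log2 fold change of genes of the pathway lists in 3 comparisons at 24 hours, with bars of 1 standard error, where filled points passed the test; Mt1 has 2 gene entries, told apart by the end of their identifiers. Il6, Socs3, Cebpb, Cebpd, Tf and the metallothioneins lie right of zero in SAP-24h vs Sham-24h and left of zero in both comparisons of a drug with SAP-24h.

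Neutrophils make Slpi, Hp, Lcn2 and Ptx3 themselves, and in whole lung more cells of a type and more RNA per cell cannot be told apart. The summed FPKM of 12 neutrophil markers, all of them found, ran from 4729 to 16587 in SAP-24h, from 213 to 9401 in Sham-24h, from 153 to 993 in Con-24h, from 1106 to 3058 in DEX-24h and from 4459 to 6751 in Emo-24h. S100a8 and S100a9 had the highest means, of 1713 and 1702 FPKM. Of the 12, 2 rose in SAP-24h vs Sham-24h (Cxcr1 and Il1r2, with a median of 1.75 for the 12), where 1.98% of all genes rose. In SAP-24h vs Con-24h 10 rose (3.65% of all genes), in Con-24h vs Sham-24h 4 fell (1.00% of all genes called), and Cxcr1 fell in DEX-24h and in Emo-24h against SAP-24h (2.55% and 1.26% of all genes). No defining marker was at 0 throughout, with Mpo, Fpr1 and Fpr2 at 0 in 1 rat each. Replicate 2 of SAP-24h had the lowest neutrophil sum of its group (4729 FPKM) and also the lowest Slpi, Ptx3, Reg3g and Lcn2 of its group, as well as the lowest Cp, but not the lowest Orm1, Hp or A2m. Its Lbp was in the middle by FPKM and the lowest by scaled reads. Replicate 2 of Sham-6h had the highest sum of the 6-hour groups (5886 FPKM) and, with 318 FPKM, the highest Slpi of all 30 rats. Replicate 3 of Sham-24h had a still higher sum (9401 FPKM) with Slpi at 84.1 FPKM. Club and secretory cell markers (8 of 8 found) summed to 37537 to 47329 FPKM in SAP-24h, above the 20008 to 36430 of Sham-24h and overlapping the 36482 to 44005 of Con-24h, and 0 of the 8 were called in SAP-24h vs Sham-24h. Macrophage and monocyte markers (10 of 11 found) summed to 24348 to 31575 FPKM in SAP-24h and overlapped the 17851 to 25828 of Sham-24h, with 2 of 10 risen. The part of these cell types in the results was not tested.

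**Figure D4:**
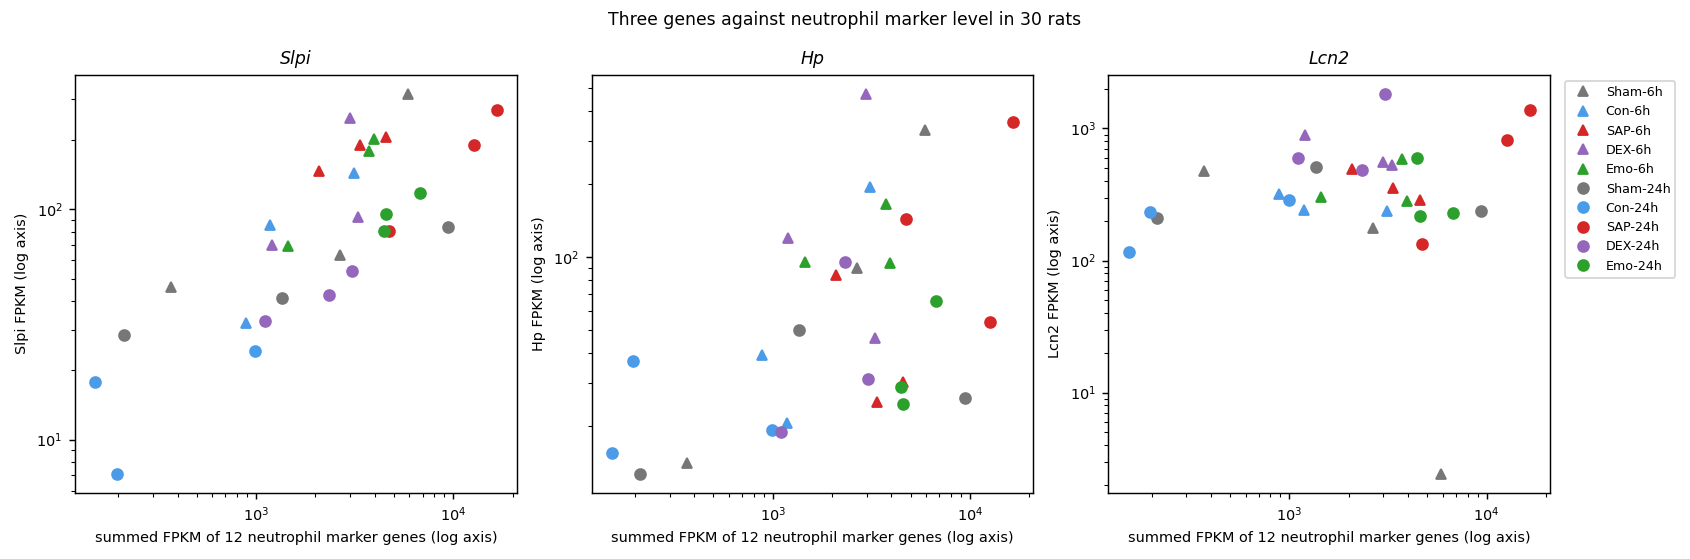
Slpi, Hp and Lcn2 FPKM against the summed FPKM of 12 neutrophil markers in 30 rats (log axes; colour is the group, triangles 6 hours, circles 24 hours). Slpi is low where the sum is low, as in Con-24h (7.12 to 24.3 FPKM), whereas Lcn2 shows no such order and has a single rat at 2.44 FPKM.

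For each gene, the genes with the most alike pattern were named by Pearson's r of log2(FPKM + 1) over 30 rats, among 12401 genes with a mean of at least 1 FPKM. These are descriptions over rats that share groups, library depths and cell makeup. For Slpi, F2rl2 (0.89) and Tlr2 (0.89), a receptor for bacterial lipoproteins, were among the nearest. For Lbp they were Csf2rb (0.88), Bcl3 (0.88) and Runx1 (0.87). For Orm1 they were Sqrdl (0.87), Nov (0.86) and Nfx1 (0.86), and for A2m they were Cyp51 (0.88), Mpzl3 (0.87) and Insig1 (0.86), of which Cyp51 and Insig1 belong to cholesterol metabolism. For Reg3g they were Gfpt2 (0.80), Irak3 (0.78) and Sod2 (0.78), and for Ptx3 they were RGD1564664 (0.74), Timp1 (0.72) and Eif1b (0.68). For Serpina1 they were Dnm3 (0.87), Ntpcr (0.81) and Ppp1r14a (0.80), for Hp they were Prdm2 (0.76), Prr13 (0.75) and F2rl2 (0.74), for Cp they were Tmem263 (0.77), Ccdc90b (0.71) and the unnamed gene ENSRNOG00000003670 (0.71), and for Lcn2 they were Aqp3 (0.71), Tmed9 (0.55) and Qsox2 (0.51). Among the 10 themselves, the closest pairs were Lbp with Slpi (0.80), A2m with Orm1 (0.75) and Ptx3 with Reg3g (0.71), and Lbp ran opposite to Serpina1 (-0.63). The ranking depended on the measure, since 8 of the 30 nearest genes stayed among the nearest 3 with Spearman's rho.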

How the data were processed

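RNA was measured in 30 lungs. The authors made directional libraries from polyadenylated RNA, mapped paired reads with TopHat2 (2 mismatches) to the genome they call rat_ensembl_v6 and kept uniquely mapped reads. The authors deposited raw counts for 22914 genes and FPKM for 22907 of them, rounded to 2 decimals. The counting program is not given in the sources used here.

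The test was edgeR's (version 4.0.16, on limma 3.58.1 and R 4.3.3), with low genes removed by filterByExpr at a minimum count of 10 and a total of 15, TMM scaling, a quasi-likelihood fit of 10 groups over 30 libraries (20 residual degrees of freedom) and Benjamini-Hochberg adjustment over 15934 genes. The SE beside each log2 fold change was worked back from the test, as the size of the change over the square root of F. FPKM gave levels and, as log2(FPKM + 1), likeness. Python 3.11.15 (numpy 2.4.6, pandas 2.3.3, scipy 1.17.1, matplotlib 3.10.9) was used. Counts were simulated for SAP-24h vs Sham-24h (15934 genes), with 1 spread per gene shared by all groups, as the test assumes. There, 81 of 100 genes changed by a log2 fold of 2 and 94 of 100 changed by 3 were called, with 6 unchanged ones. The simulation thus cannot show how the test does where groups differ in spread. Library depth ranged from 16813949 to 34692306 reads, and intervals from reads cover counting error only.

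Named were the 10 genes, from each pathway list the called genes (up to 4 with values by rule, others by name), and the 3 nearest genes by likeness, of which 1 is not reported here. The members and lists were chosen with earlier results of these data known. Alternatives were RLE scaling, DESeq2 1.42.0, only the groups compared, no filter, an unadjusted p, no fold threshold, a replicate block and each rat left out. The 4 comparisons of DEX and Emo with Sham were added after the data had been seen. The labels' replicate numbers were checked for pairing: deviations of same-numbered rats correlated at over 0.1 in every pair in 1 of 21 comparisons (DEX-24h vs DEX-6h, 0.21 to 0.23), where the block left the count of calls at 2. Other RNAs and histology were not analysed here.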

Additional observations from a re-analysis of the deposited data

Results flagged for a closer look

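The effect of emodin on Ptx3 differed between the times. Its log2 fold change in Emo vs SAP was -0.25 at 6 hours and -3.31 at 24 hours, and the interaction of drug and time was -3.06 ± 0.69 (edgeR, adjusted p = 0.0258 over 15934 genes). SAP-24h was the group in which Ptx3 was high (3.23 to 13.4 FPKM), and the Emo rats were at 1.36 to 1.94 FPKM at 6 hours and 0.64 to 1.38 FPKM at 24 hours. The call was lost in 4 of 12 fits that leave out 1 rat, namely without replicate 2 of Emo-24h, replicate 1 or 3 of Emo-6h or replicate 2 of SAP-6h (adjusted p 0.0522 to 0.0933), and with only the 12 libraries compared (adjusted p = 0.118). The like interaction for DEX was -3.21 ± 0.70 and did not pass in edgeR (adjusted p = 0.0572), but it passed with RLE scaling (adjusted p = 0.0489) and with DESeq2 (adjusted p = 0.00115). Whether the 2 interactions differ was not tested.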

How the results depend on the processing

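Of the 240 fold changes (10 genes in each comparison), 73 changed sign in at least 1 alternative, none of them among the 29 called. Of those 73, 5 were of at least 2-fold, all in comparisons that hold a Con group (A2m, Orm1 and Reg3g) and each turning when 1 Con rat was left out. At an unadjusted p under 0.05 and 2-fold, 461 of all 15934 genes were higher and 868 lower in SAP-24h vs Sham-24h. For Emo-24h vs SAP-24h these were 845 and 337, and for Emo-24h vs DEX-24h 1009 and 317. Between 24 and 6 hours in DEX they were 639 and 852, in DEX-6h vs Sham-6h 592 and 491, and in the emodin interaction 1019 and 380. Counts below are of the 10 genes called. With an unadjusted p they were 2 in SAP-6h vs Sham-6h, 1 in SAP-6h vs Con-6h, 2 in DEX-6h vs SAP-6h, 1 in Emo-6h vs SAP-6h, 2 in Emo-6h vs DEX-6h, 8 in SAP-24h vs Sham-24h, 1 in Con-24h vs Sham-24h, 5 in Emo-24h vs SAP-24h, 2 in Emo-24h vs DEX-24h, 2, 1 and 5 between 24 and 6 hours in Sham, Con and DEX, 5, 4 and 4 in the interactions of SAP, DEX and emodin with time, and 2 in DEX-6h vs Sham-6h. With only the groups compared, which leaves fewer samples to estimate the spread, they were 0 in SAP-24h vs Sham-24h, 3 in SAP-24h vs Con-24h, 0 in Emo-24h vs SAP-24h, 2 in Emo-24h vs DEX-24h, 1 in DEX-6h vs SAP-6h, 1 in Emo-6h vs DEX-6h, 1 and 2 between the times in SAP and Emo, and 0 in the emodin interaction. DESeq2 called 8 in SAP-24h vs Sham-24h, 2 in Emo-24h vs DEX-24h, 2 in Emo-6h vs DEX-6h, 1 and 4 between the times in Con and DEX, 2 and 2 in the DEX and emodin interactions, and 2 in DEX-6h vs Sham-6h. Over all 15934 genes DESeq2 called 414 higher and 566 lower in SAP-24h vs Sham-24h, 737 and 250 in Emo-24h vs DEX-24h, and 232 and 157 in Emo-6h vs DEX-6h. Between the times it called 13 and 95 in Con and 490 and 721 in DEX. It called 53 and 120 in the DEX interaction, 371 and 227 in the emodin interaction, and 446 and 318 in DEX-6h vs Sham-6h. With only the groups compared, 50 of all genes were called higher and 47 lower in DEX-6h vs SAP-6h, and 37 and 52 in Emo-6h vs DEX-6h. In that setting these were 32 and 145 between the times in SAP, 825 and 488 in Emo, and 2 and 0 in the emodin interaction. Of the 10 genes, RLE scaling gave 2 in Emo-24h vs DEX-24h and 1 in the DEX interaction. Over all genes it called 587 higher and 213 lower in the first and 9 and 20 in the second. Without the filter SAP-24h vs SAP-6h gave 1 of the 10, and it gave 1 with the replicate block (the number as a pairing). The block moved no other count of the 10 by over 1.5 times. Over all genes, SAP-24h vs SAP-6h had 96 higher and 224 lower without the filter, and 87 and 250 with the block. Leaving out 1 rat gave 3 to 6 of the 10 in SAP-24h vs Sham-24h, 2 to 4 in DEX-24h vs SAP-24h and 1 to 2 in Emo-24h vs DEX-24h. It gave 0 to 2 between the times in SAP and 1 to 3 in DEX. It gave 0 to 1 in the DEX interaction, 0 to 2 in the emodin interaction and 0 to 1 in DEX-6h vs Sham-6h. The calls over all genes moved as well. In SAP-24h vs Sham-24h the fewest were 165 higher and 237 lower (without replicate 1 of SAP-24h). The most were 391 and 449 (without replicate 3 of Sham-24h). With Spearman's rho, 8 of 30 nearest genes stayed. The causes were not tested. Reg3g and A2m are limited by depth, with at most 153 and 264 reads in a rat.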

Other observations

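Lcn2 was at 2.44 FPKM (66 reads) in replicate 2 of Sham-6h, while replicates 1 and 3 had 176 and 474 FPKM. Of 3021 protein-coding genes above 20 FPKM in both of the other rats, Lcn2 was the 1 gene more than 10 times below their mean in that rat. The same rat had the highest Hp (334 FPKM) and Slpi (318 FPKM) of its group. What sets this value apart was not tested, and with 3 rats in the group no outlier test was made.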
